A study of Mus musculus with 2 samples.

Results

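8 genes of the matrix metalloproteinase system were followed in the GR1+ cells of 4T1 tumors: the proteases Mmp8, Mmp9, Mmp12, Mmp13, Mmp14 and Mmp19 and the tissue inhibitors Timp1 and Timp2. They were taken by gene symbol, 8 of 32285 listed genes and 8 of the 26 listed genes whose symbols begin with Mmp or Timp followed by a number. 4T1 is a mouse mammary carcinoma line. 4T1P is its parental form, which does not respond to anti-PD1, and 4T1M is a clone of it made with the mutagen MNNG that does respond. BALB/c mice aged 6 to 8 weeks carried the tumors, with no treatment recorded for the sequenced samples, and GR1+ cells were taken from the tumors by positive bead selection. GR1 is an epitope shared by Ly6G and Ly6C, so this selection collects neutrophils and monocytic cells together. Each tumor line gave 1 droplet library (10x Genomics) of pooled mice, 5 per library by the series records, while a figure legend of the study gives a smaller number. With 1 library per tumor line there was no replicate, no test was possible, and every interval below is a 95% interval that covers counting error only.

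Matrix metalloproteinases are zinc proteases that are made as inactive precursors and, once cut open, degrade collagens, elastin, gelatin and other parts of the extracellular matrix. TIMP proteins bind their active sites and block them. Neutrophils store Mmp8, the neutrophil collagenase, and Mmp9, gelatinase B, in granules that are filled during maturation in the bone marrow, whereas macrophages make Mmp12, the macrophage elastase, and several collagenases on demand.

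The 4T1P library held 2947 barcodes with 21855657 unique molecular identifiers (UMIs, counts of captured RNA molecules), and the 4T1M library held 5004 barcodes with 24303957 UMIs. The analysis kept barcodes that showed 500 to 5000 genes and no more than 10% of UMIs from mitochondrial genes, 1726 in 4T1P and 3461 in 4T1M, which together is more than the study states after its own filter. Neutrophils were retained cells with at least 1.5% of UMIs from S100a8 and S100a9 and under 0.5% from C1qa, C1qb, C1qc and Apoe, 612 in 4T1P and 1686 in 4T1M. Macrophages had under 1.5% from S100a8 and S100a9 and at least 0.3% from C1qa, C1qb, C1qc, Apoe, Csf1r, Cd68 and Fn1, 798 in 4T1P and 976 in 4T1M. The classes are cuts through per-cell shares: 77 and 288 neutrophils and 217 and 300 macrophages of 4T1P and 4T1M lay near a cut. None of the 9 neutrophil markers was at 0 in neutrophils, where they summed to 175367 and 143099 CPM (UMIs of a gene per 1000000 UMIs of the class) in 4T1P and 4T1M, against 718 and 1398 CPM in macrophages. The 15 monocyte and macrophage markers summed to 32114 and 29646 CPM in macrophages and to 5528 and 5198 CPM in neutrophils. Each class thus held transcripts of the other's list. Of the 15 markers 2 were less than 4-fold higher in macrophages, Cd14 the lowest, so these sums do not measure RNA from the other class. Both lists hold genes of the class rule, S100a8 and S100a9 in the first and C1qa, C1qb, C1qc, Apoe, Csf1r and Cd68 in the second. The differences between the classes in these sums therefore follow in part from the rule and do not check it. Neutrophil sums held 2502947 UMIs in 4T1P and 6580005 in 4T1M, and macrophage sums 8767210 and 9343315. Of 5 barcodes found in both libraries 3 were retained, and these were not removed.

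Mmp13, Mmp12 and Mmp8 lie on the same stretch of chromosome 9 in the GRCm38 build, all on the plus strand, at chr9:7272514-7283331, chr9:7344381-7369499 and chr9:7558456-7568485. The starts of Mmp13 and Mmp12 lie 71.9 kb apart, and that of Mmp8 lies 214 kb beyond that of Mmp12. Mmp9 is at chr2:164940780-164955850, Mmp19 at chr10:128790910-128800824, Mmp14 at chr14:54431612-54445364, Timp2 at chr11:118301069-118355740 on the minus strand, and Timp1 at chrX:20870166-20874735, inside Syn1, which is read from the opposite strand. Genes that overlap the members held few UMIs in the retained cells, at most 47 in 4T1P and 56 in 4T1M, both in Tmem198b, which overlaps Mmp19.

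RefSeq promoter windows (GRCm38.p6, 250 bases before and 50 after a start site) were at hand for 6 of the 8 genes, not including Mmp9 and Mmp19. The windows of the 3 chromosome 9 members are printed because Mmp12 and Mmp13 followed each other across cell clusters while Mmp8, on the same stretch, did not. Capitals mark TGANTCA, the AP-1 site (N is any base), searched on both strands.
Mmp13, chr9:7272264-7272563, plus strand: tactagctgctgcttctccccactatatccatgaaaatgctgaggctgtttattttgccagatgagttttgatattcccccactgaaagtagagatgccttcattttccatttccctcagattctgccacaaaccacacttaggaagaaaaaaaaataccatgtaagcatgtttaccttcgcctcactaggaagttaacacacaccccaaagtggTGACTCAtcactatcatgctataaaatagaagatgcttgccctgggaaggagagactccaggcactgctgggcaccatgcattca
Mmp12, second RefSeq start, chr9:7347124-7347423, plus strand: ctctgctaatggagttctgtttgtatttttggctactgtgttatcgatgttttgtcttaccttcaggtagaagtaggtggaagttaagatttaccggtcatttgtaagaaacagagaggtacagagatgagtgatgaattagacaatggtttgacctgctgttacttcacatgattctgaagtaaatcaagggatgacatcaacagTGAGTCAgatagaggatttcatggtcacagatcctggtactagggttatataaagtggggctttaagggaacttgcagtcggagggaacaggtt
Mmp8, chr9:7558179-7558478, plus strand: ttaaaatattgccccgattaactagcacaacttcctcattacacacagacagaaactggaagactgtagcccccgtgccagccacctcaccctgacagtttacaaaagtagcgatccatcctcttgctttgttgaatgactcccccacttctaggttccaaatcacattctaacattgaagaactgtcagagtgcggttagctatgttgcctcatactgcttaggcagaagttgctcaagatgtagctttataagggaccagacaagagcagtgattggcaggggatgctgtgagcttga
With the first transcribed base as position 0, the AP-1 letters begin at position -35 in Mmp13 and at position -44 in this Mmp12 window. They were in the windows of 2 of the 6 genes, and in 7.81% of all 32851 windows. The window at the first Mmp12 start held none, nor did those of Mmp8, Mmp14, Timp1 and Timp2. TATAAA on the gene's strand began at position -16 in Mmp13 and at position 4 in the second Mmp12 window, and 8.32% of all windows held it. AGGAAG, a letter string bound by ETS factors, was found on either strand in 5 of the 6 genes and in 35.4% of all windows. These are matches of letters and were not tested as sites.

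The genes fell into those with higher levels in neutrophils and those with higher levels in macrophages, and Timp2 stood closer between them. A gene was counted as different between the classes where its levels stood at least 4-fold apart, among genes with at least 50 UMIs in both classes together. In 4T1P 5 members were past this size with the higher level in macrophages, against 32.3% of 8954 genes, and 2 with the lower level, against 4.03%. In 4T1M the same 5 and the same 2 genes were past it, against 29.4% and 4.67% of 9338 genes. The median log2 ratio of macrophages over neutrophils was 3.93 over the members in 4T1P, or 3.64 with Timp1 at its bound, against 1.17 over all genes, and 3.18 against 1.01 in 4T1M. Scaling by edgeR TMM factors moved every such ratio by -0.68 in 4T1P and -0.74 in 4T1M, which took the split of all genes past the size from 2890 higher and 361 lower to 1852 and 682 in 4T1P, and from 2742 and 436 to 1531 and 818 in 4T1M. It left the members' counts at 5 and 2.

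**Figure D1:**
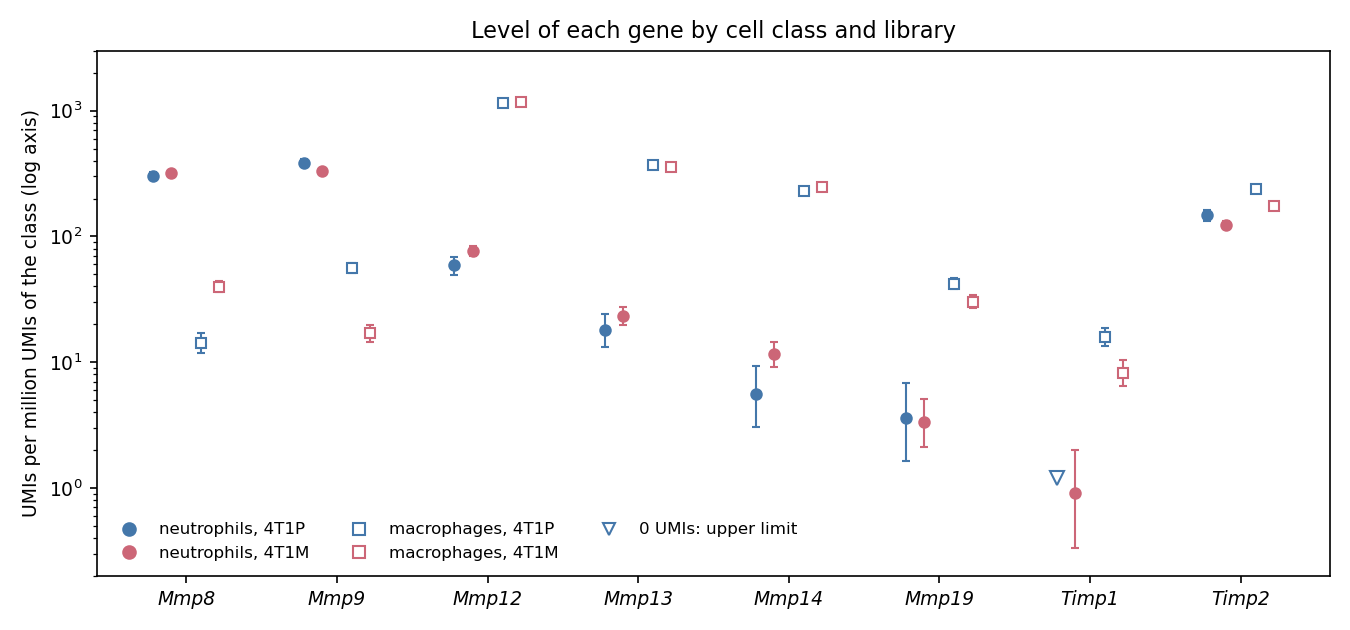
Level of each gene in CPM (vertical log axis) in neutrophils (filled circles) and macrophages (open squares) of 4T1P (blue) and 4T1M (red), with exact Poisson 95% intervals. Mmp8 and Mmp9 stand higher in neutrophils and Mmp12, Mmp13, Mmp14, Mmp19 and Timp1 in macrophages; the triangle marks the level of 3 UMIs for Timp1, which had 0 UMIs in 4T1P neutrophils.

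Mmp8, which cleaves fibrillar collagens, was measured in neutrophils at 305 CPM in 4T1P (763 UMIs, 284 to 327) and 319 CPM in 4T1M (2096 UMIs, 305 to 332). In macrophages it stood at 14.3 CPM (11.9 to 17.0) and 39.8 CPM (35.9 to 44.1). The neutrophil levels of the libraries overlapped in their intervals and those of macrophages did not. After each cell was thinned to 1000 UMIs, a UMI of Mmp8 was found in 13.2% of neutrophils in 4T1P and 15.6% in 4T1M, and in 1.30% and 2.56% of macrophages. Before thinning these shares were 30.7% and 30.4% of neutrophils, with median depths of 3054.5 and 2957.5 UMIs, and 7.52% and 10.5% of macrophages, with 9727 and 9213.5 UMIs.

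Mmp9, which cleaves gelatin and basement membrane collagen, was measured in neutrophils at 386 CPM in 4T1P (966 UMIs, 362 to 411) and 332 CPM in 4T1M (2183 UMIs, 318 to 346). In macrophages it stood at 55.8 CPM (489 UMIs, 50.9 to 60.9) and 16.9 CPM (158 UMIs, 14.4 to 19.8). The intervals of the libraries did not overlap in either class, and the 4T1P level was the higher. At 1000 UMIs per cell it was found in 19.9% and 19.3% of neutrophils and in 2.33% and 0.958% of macrophages.

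The background share was read in lymphocytes, cells outside both classes with at least 3 UMIs of T, NK and B cell markers and little S100a8 and S100a9 (median depth 5722 UMIs in 4T1P and 6403 in 4T1M). At 1000 UMIs Mmp9 was found in 0 of 127 lymphocytes of 4T1P, which by the count of 3 allows a share of up to 2.36%, and in 1.17% of 171 of 4T1M. Mmp8 was found in 3.94% and 4.68% of them and Mmp12 in 9.45% and 14.0%. Il7r is one of the markers used and is also among the genes that lead the cluster richest in Mmp12, described below. Without Il7r as a marker, a definition chosen after these values were seen, 104 and 123 thinned lymphocytes were left, and Mmp12 was found in 1.92% and 0.813% of them, Mmp8 in 0% and 0%, Mmp9 in 0% and 1.63%, and Timp2 in 6.73% and 3.25%. Their median depths were 4896 and 5662 UMIs before thinning. By the count of 3, 0 of 104 cells of 4T1P allows up to 2.88% and 0 of 123 cells of 4T1M up to 2.44%. The shares of Mmp9 in macrophages and that of Mmp8 in 4T1P macrophages are no larger than these limits, and that of Mmp8 in 4T1M, at 2.56% with an interval of 1.64% to 3.78%, cannot be set apart from its limit, so these shares are not read as expression or as a difference. As levels, Mmp8 stood at 1.52 and 14.1 CPM and Mmp9 at 0 and 3.84 CPM in these lymphocytes, on at most 11 UMIs, and at 63.7 and 72.5 CPM and 3.19 and 10.7 CPM in those defined with Il7r. Shares of Timp1 in macrophages, at 1.17% and 0.958% against 2.36% and 0.585% of lymphocytes, are likewise not read as expression or as a difference. The same holds for the shares of Mmp13, Mmp14 and Mmp19 in neutrophils, at 0.178% to 1.01%. As a level, Timp1 stood at 18.1 and 12.3 CPM in lymphocytes defined with Il7r, with intervals that overlapped those of macrophages. Without Il7r it stood at 0 and 6.40 CPM, on 0 and 5 UMIs. Mmp12 in neutrophils, at 1.80% and 3.09%, was below the first background and within the interval of the second. Timp2, Mmp12, Mmp13 and Mmp14 in macrophages stood above either background. Timp2 in neutrophils did so in 4T1M, at 10.4%, while in 4T1P its interval, 7.42% to 12.3%, overlapped that of both.

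The Mmp9 UMIs of macrophages were concentrated in few cells. The 10 macrophages with most Mmp9 held 69.3% of its macrophage UMIs in 4T1P, up to 56 UMIs in a cell, and 63.3% in 4T1M, whereas the 10 richest neutrophils held 19.98% and 8.34%. These 10 macrophages carried 2345 CPM of S100a8 and S100a9 in 4T1P and 5123 CPM in 4T1M, against 509 and 1018 CPM in the other macrophages. In 4T1P G0s2, a neutrophil gene, stood next to Mmp9 among the genes that lead them, followed by Thbs1, Cxcl3, Sox4 and Pf4. In 4T1M Sox4, S100a9 and S100a8 followed Mmp9. By the clusters described below, 8 of the 10 cells in 4T1P and 7 of the 10 in 4T1M fell in cluster 5. The others fell in cluster 3 in 4T1P and in clusters 3 and 9 in 4T1M. For Mmp8 the 10 richest macrophages held 51.2% and 41.7% of its macrophage UMIs. All 10 of these cells in 4T1M and 9 of 10 in 4T1P fell in the same cluster, number 5 below, which Thbs1 and Sdc1 lead. In 4T1P these cells carried 222 CPM of S100a8 and S100a9, less than the 550 CPM of the other macrophages, and Mmp13, Mmp12 and Nos2 followed Mmp8 among their leading genes. In 4T1M the order was the other way, with 1606 CPM in these cells against 1073 CPM in the other macrophages, and Gpnmb and Cxcl3 followed Mmp8.

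Levels of neutrophil markers in the macrophage class differed between the libraries, and the source of these UMIs was not tested. Of the 9 neutrophil markers 8 had at least 50 UMIs in macrophages, 7 of these were at least 1.5-fold higher in 4T1M, none lower, and their median log2 ratio was 0.93. As a share of its level in neutrophils, the macrophage level of Mmp8 was 4.68% in 4T1P and 12.5% in 4T1M. For Retnlg this share was 0.352% and 0.686%, for Cxcr2 0.772% and 2.13%, and for Il1r2, the highest of the 9, 5.95% and 11.7%. Mmp8 moved in the direction of these markers and Mmp9 against it, from 14.5% to 5.10%. The part of neutrophil RNA in either value was not tested.

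Mmp12 was measured in macrophages at 1161 CPM in 4T1P (10176 UMIs, 1138 to 1183) and 1179 CPM in 4T1M (11020 UMIs, 1158 to 1202). In neutrophils it stood at 58.7 and 76.3 CPM. The macrophage levels were 19.8-fold (4T1P) and 15.5-fold (4T1M) higher than those of neutrophils. Mmp12 was unevenly spread: at 1000 UMIs 24.0% of macrophages held a UMI in 4T1P and 26.9% in 4T1M, a cell held up to 411 and 499 UMIs before thinning, and 28 cells of 798 and 42 of 976 held 50% of all its macrophage UMIs. In neutrophils 10 cells held 80.3% of its UMIs in 4T1P and 71.1% in 4T1M, and Arg1 and Il7r, genes of macrophages in this dataset, were among the genes leading those cells. Without these 10 cells in each class the log2 ratio of macrophages over neutrophils was 6.19 in 4T1P and 5.38 in 4T1M, against 4.30 and 3.95 with them.

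Mmp13, collagenase-3, was measured in macrophages at 370.5 CPM in 4T1P (3248 UMIs, 358 to 383) and 357 CPM in 4T1M (3339 UMIs, 345 to 369.7), and in neutrophils at 18.0 and 23.3 CPM. The intervals of the libraries overlapped in both classes. A UMI of Mmp13 was found in 13.3% and 14.5% of macrophages at 1000 UMIs. Mmp13 accompanied Mmp12 within cells: among macrophages with a UMI of Mmp12 27.6% (4T1P) and 26.9% (4T1M) also held Mmp13, against 8.86% and 9.91% of macrophages without it, with intervals that did not overlap (21.3% to 34.6% against 6.69% to 11.5%, and 21.5% to 32.8% against 7.78% to 12.4%). Mmp14 did not separate in this way, at 20.5% and 21.7% of macrophages with Mmp12 against 16.01% and 18.5% without it, with intervals that overlapped.

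Mmp14, a membrane-bound metalloproteinase that activates other members of the family at the cell surface, was measured in macrophages at 230.3 CPM in 4T1P (2019 UMIs, 220.4 to 241) and 247 CPM in 4T1M (2312 UMIs, 237 to 258). Its UMIs were the most evenly spread among the proteases with higher levels in macrophages, with 7.43% and 5.58% in the 10 richest cells, and 17.1% and 19.4% of macrophages held it at 1000 UMIs. In neutrophils it stood at 5.59 CPM on 14 UMIs in 4T1P and 11.6 CPM on 76 UMIs in 4T1M.

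Mmp19 was measured in macrophages at 42.2 CPM in 4T1P (370 UMIs, 38.0 to 46.7) and 30.2 CPM in 4T1M (282 UMIs, 26.8 to 33.9), and in neutrophils at 3.60 and 3.34 CPM on 9 and 22 UMIs. The intervals of the macrophage levels did not overlap, and the neutrophil counts were too few for a ratio between libraries. At 1000 UMIs it was found in 3.63% (2.42% to 5.20%) and 2.45% (1.56% to 3.65%) of macrophages. Of the lymphocytes 0 of 127 in 4T1P held it, which allows up to 2.36% by the count of 3, and 1.75% in 4T1M (0.363% to 5.04%). Without Il7r as a marker 0 lymphocytes held it, which allows up to 2.88% and 2.44%. Both macrophage intervals take in these limits, so the shares cannot be set apart from this background. As levels, Mmp19 stood at 19.1 CPM (11.3 to 30.2) and 16.5 CPM (10.1 to 25.4) in the lymphocytes defined with Il7r. These intervals lay below those of macrophages in the same library. Without Il7r as a marker the lymphocytes held 0 UMIs of Mmp19 in both libraries.

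Of the inhibitors, Timp2 was measured at 148 CPM (133 to 164) and 124 CPM (116 to 133) in neutrophils of 4T1P and 4T1M and at 237 CPM (227 to 247) and 174 CPM (166 to 183) in macrophages. It was the only member less than 4-fold apart between the classes, 1.60-fold and 1.41-fold higher in macrophages, and with the TMM factors this log2 ratio changed sign, from 0.68 to -0.0041 in 4T1P and from 0.49 to -0.25 in 4T1M. In 4T1M the levels of both classes lay below the 4T1P intervals. Timp1 was nearly absent from neutrophils, with 0 UMIs in 4T1P, which allows up to 1.199 CPM by the count of 3, and 6 UMIs in 4T1M. In macrophages it stood at 15.9 CPM (139 UMIs, 13.3 to 18.7) and 8.24 CPM (77 UMIs, 6.50 to 10.3). The macrophage level in 4T1P was 13.2-fold higher than this bound for neutrophils. With counting error in both classes, the exact interval of the log2 ratio began at 3.41. In 4T1M 59.3% of all Timp1 UMIs lay in cells outside both classes, 82 of the 121 there in 1 cell. Wfdc2, Krt7 and Epcam, genes of epithelial cells, were among the genes leading the 10 such cells with most Timp1.

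The comparison of the responding with the non-responding tumor asked which of these genes differed between the libraries within each class. A ratio was counted where the levels stood at least 1.5-fold apart, among genes with at least 50 UMIs over both libraries. In neutrophils 6 members had enough UMIs, and 1 of them, Mmp14, was higher in 4T1M past that size, against 9.81% of 6465 genes, while none was lower, against 3.12%. Their median log2 ratio of 4T1M over 4T1P was 0.22, against 0.05 over all genes. In macrophages 1 of 8, Mmp8, was higher, against 4.03% of 9874 genes, and 2, Mmp9 and Timp1, were lower, against 4.08%. The median over the 8 was -0.25, against -0.03 over all genes. The shares of Mmp14 in neutrophils and of Mmp8, Mmp9 and Timp1 in macrophages were not set apart from the background, as given above. As a level, Mmp9 in 4T1P macrophages (50.9 to 60.9 CPM) lay above both backgrounds (3.19 and 0 CPM). In 4T1M its interval (14.4 to 19.8 CPM) overlapped that of lymphocytes defined with Il7r (5.70 to 18.3 CPM). The macrophage levels of Mmp8 lay below those of lymphocytes defined with Il7r in both libraries.

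**Figure D2:**
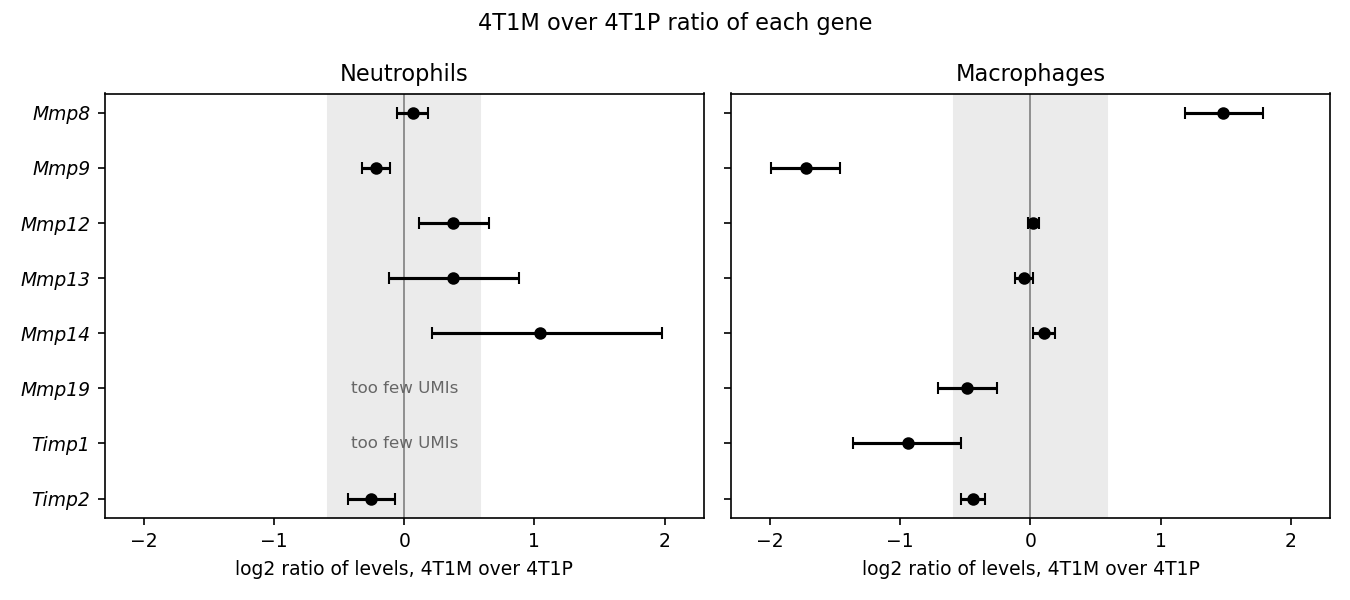
log2 ratio of the level in 4T1M over that in 4T1P for each gene in neutrophils (left) and macrophages (right), with exact 95% intervals for counting error; the gray band spans ratios under 1.5-fold. In macrophages Mmp8 (1.48) and Mmp9 (-1.72) lie on opposite sides of the band, while Mmp12, Mmp13 and Mmp14 lie near 0.

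Of the 6 members with a ratio in both classes, Mmp8 and Mmp9 differed most between them. The log2 ratio of Mmp8 was 0.06 (-0.06 to 0.18) in neutrophils and 1.48 (1.19 to 1.79) in macrophages, a difference of 1.42 (1.10 to 1.75). That of Mmp9 was -0.22 (-0.33 to -0.11) and -1.72 (-1.99 to -1.46), a difference of -1.50 (-1.79 to -1.22). Both macrophage ratios rest on genes whose shares of macrophages were not set apart from the background. Without the 10 macrophages of each library richest in the gene, an alternative chosen after the data were seen, the macrophage ratios were 1.74 for Mmp8 and -1.47 for Mmp9. With stricter class cuts they were 0.75 and -1.88, so that of Mmp8 moved by over 1.5-fold.

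Mmp12, Mmp13 and Mmp14, which had 85.1% to 95.8% of their retained UMIs in macrophages, showed macrophage ratios of 0.02 (-0.02 to 0.06), -0.05 (-0.12 to 0.02) and 0.10 (0.02 to 0.19). Their neutrophil ratios were 0.38 (0.11 to 0.65), 0.37 (-0.12 to 0.88) and 1.05 (0.21 to 1.98), on few UMIs. Macrophage genes in the neutrophil class also stood higher in 4T1M, 5 of the 14 macrophage markers with enough UMIs past 1.5-fold and none lower, among them Ccr2 at 1.81 and Fcgr1 at 1.34, though the summed level of all 15 did not (5528 and 5198 CPM). Their part in the ratio of Mmp14 was not tested. Without the barcodes of the highest doublet scores the neutrophil ratios were 1.40 for Mmp12, 1.004 for Mmp13 and 2.60 for Mmp14. With at most 5% mitochondrial UMIs they were -0.03, 0.08 and 1.93, and with stricter class cuts -0.09, 0.29 and 1.91, so the direction of Mmp12 in neutrophils depended on the setting.

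In macrophages Timp1 and Timp2 had log2 ratios of 4T1M over 4T1P of -0.94 (-1.36 to -0.53) and -0.44 (-0.54 to -0.35), and Mmp19 stood at -0.48 (-0.71 to -0.26). Only that of Timp1 was past 1.5-fold. However, Mmp19 reached -0.66 with at most 5% mitochondrial UMIs and Timp2 -0.65 by the mean over cells, both past that size. The shares of macrophages with Timp1 were not set apart from either background, nor those with Mmp19 from the background without Il7r. In neutrophils Timp2 stood at -0.26 (-0.43 to -0.07).

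In neutrophils the levels of Mmp8 and Mmp9 followed the granule genes. Cells were grouped by their UMIs of 10 granule genes (Ltf, Camp, Ngp, Lcn2, Cd177, Chil3, Mpo, Elane, Prtn3 and Ctsg) after thinning to 1000 UMIs, into none, low (1 to 2 UMIs) and high. Mmp8 stood at 109, 171 and 547 CPM in these groups in 4T1P and at 118, 259 and 605 CPM in 4T1M. Mmp9 stood at 227, 324 and 558 CPM in 4T1P and at 207, 318 and 492 CPM in 4T1M. Both genes had their lowest level in cells without granule transcripts and their highest in the high group of both libraries, and the step was steeper for Mmp8. Timp2 stood at 137, 164 and 148 CPM in 4T1P, with overlapping intervals, and at 108, 116 and 148 CPM in 4T1M, where the high group lay above the none group. The median depth also climbed along the groups, from 2769.5 to 4686.5 UMIs in 4T1P and from 2566 to 4272 UMIs in 4T1M, and its part in these levels was not tested. Within cells thinned to 1000 UMIs, Mmp9 was found in 30.9% and 32.4% of neutrophils that also held Mmp8, against 18.3% and 16.9% of those that did not, and in 4T1M the intervals did not overlap.

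Between the libraries the granule genes themselves were lower in 4T1M neutrophils: of 7 with enough UMIs 3 were past 1.5-fold lower, none higher, with a median log2 ratio of -0.55. These were Ltf, lactoferrin, at -0.92, Camp, the cathelicidin, at -0.91, and Ngp at -0.71. The smallest difference was that of Cd177 at -0.33. The ratio of Mmp8, at 0.06, stood above all of these, and within the low granule group its 4T1M level lay above the 4T1P interval (138 to 208 CPM), while in the none and high groups the intervals overlapped.

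Along 12 interferon-stimulated genes (Ifit1, Isg15, Rsad2, Irf7 and others) the order was the opposite. Mmp9 stood at 458, 363 and 247 CPM in neutrophils with none, 1 to 3 and more than 3 UMIs of the list in 4T1P, and at 415, 330.0 and 260.0 CPM in 4T1M. Mmp8 stood at 409, 195 and 247 CPM in 4T1P and at 485, 308 and 183 CPM in 4T1M. The cells without interferon transcripts held the highest level of both proteases in both libraries, and the step was ordered through all 3 groups except for Mmp8 in 4T1P. Cells of these groups had near median depths, 3129, 2940.5 and 3107 UMIs in 4T1P and 2776, 2973 and 3030.5 UMIs in 4T1M. Of the 12 interferon genes 8 were past 1.5-fold higher in 4T1M neutrophils, from Ifit3 at 1.31 to Ifi47, not past it, at 0.24, and the libraries differed in how many cells fell in each group, 133 of 612 thinned cells in the high group of 4T1P and 532 of 1682 in that of 4T1M.

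**Figure D3:**
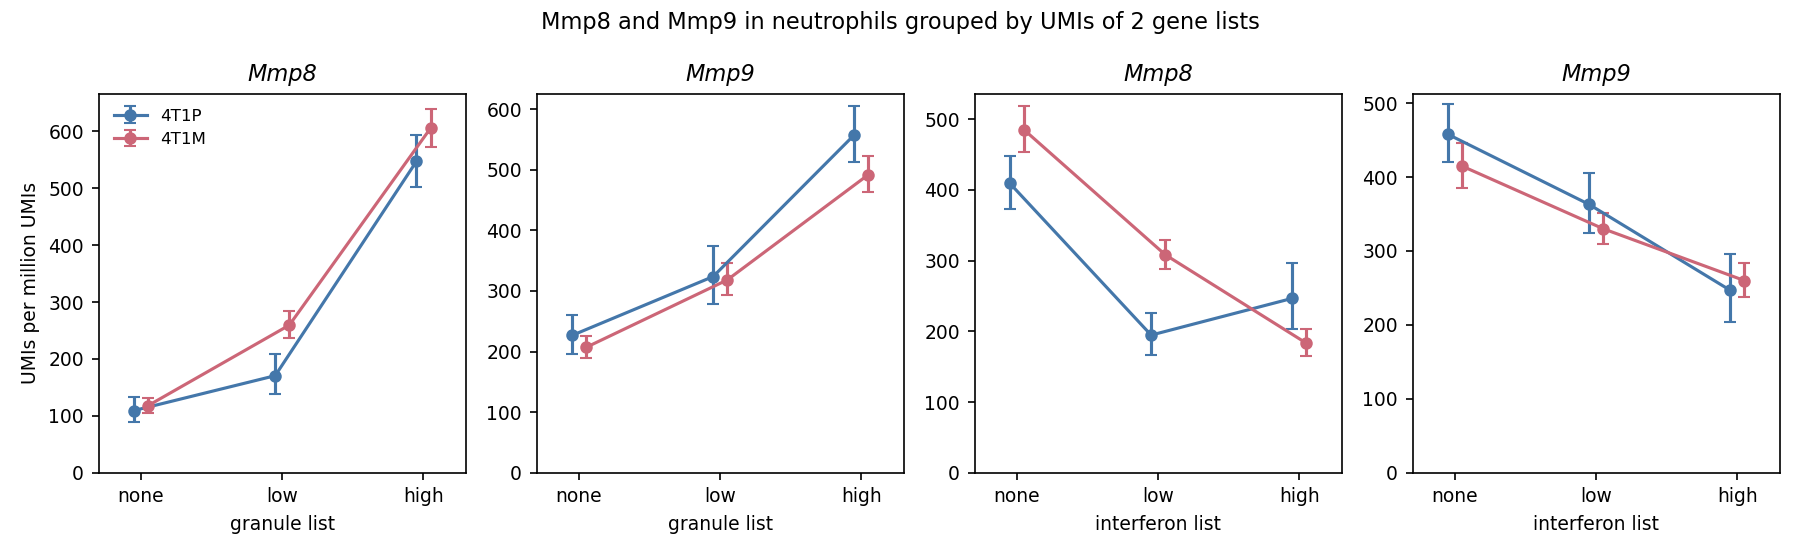
Levels of Mmp8 and Mmp9 (CPM, vertical axes from 0) in neutrophils of 4T1P (blue) and 4T1M (red) grouped by UMIs of the granule list and of the interferon list, with exact Poisson 95% intervals. Both genes climb from the none to the high granule group and stand highest in cells without interferon transcripts.

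Clusters made from the retained cells without the 8 members among the features showed where each gene peaked. There were 14 clusters, 12 with at least 30 cells in each library, and for 7 of the 8 members the same cluster held the highest level in both libraries. The exception was Timp1, highest in cluster 11 in 4T1P, at 36.2 CPM, and in cluster 5 in 4T1M, at 39.9 CPM. In 4T1M cluster 5 held 345 cells, of which 237 were macrophages. Of the 10 cells outside both classes with most Timp1 in 4T1M, 7 fell in it. Mmp8 was highest in cluster 8, led by Camp, Ngp and Ltf, at 542 CPM in 4T1P and 770.4 CPM in 4T1M, and Mmp9 in the same cluster at 679 and 575 CPM. The genes parted in cluster 4, led by Hdc, Steap4 and Mirt1, which ranked second for Mmp9, at 405 and 435 CPM, but not for Mmp8, at 124 and 118 CPM. In cluster 2, led by Slc2a3, Mmp8 stood at 244 and 176 CPM and Mmp9 at 125 and 103 CPM.

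Mmp12 was highest in cluster 5, led by Thbs1, Sdc1 and Inhba, at 2645 and 2477 CPM, and Mmp13 in the same cluster at 531 and 457 CPM. In cluster 3, led by Cx3cr1, C1qa and Vcam1, Mmp12 stood at 502 and 521 CPM while Mmp13 stood at 362 and 355 CPM and Mmp14 at its highest, 263 and 264 CPM. Mmp14 was more level over the macrophage clusters than Mmp12. Cluster 11, led by Cd163, Lyve1 and Retnla, genes of tissue-resident macrophages, held the highest levels of Timp2, at 837 and 983 CPM, and of Mmp19, at 105 and 70.9 CPM, and little Mmp12, at 38.0 and 17.6 CPM. The interval of Mmp19 there in 4T1M, 40.5 to 115 CPM on 35 cells, took in its level in cluster 5, at 51.9 CPM. Of clusters 3, 5, 7, 9 and 11, the one with the highest level of Timp2 thus had the lowest level of Mmp12. The shared peak of Mmp12 and Mmp13 depended on the clustering. At a finer resolution of 1.2, Mmp13 in 4T1P was highest, at 560 CPM, in a cluster led by Vcam1, Adamdec1 and Cx3cr1. Mmp12 in 4T1P was highest there in a cluster led by Bhlhe41, Lpl and Pf4, at 1896 CPM. In 4T1M both were highest in the cluster led by Bhlhe41. The peak of Mmp9 in 4T1M also moved at this resolution, to a cluster led by Il23a, Saa3 and Car4, at 603 CPM (550 to 659). The cluster led by Camp, Ngp and Ltf came second for it, at 599.9 CPM. In 4T1P Mmp9 stayed highest in the cluster led by Camp, at 755 CPM.

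**Figure D4:**
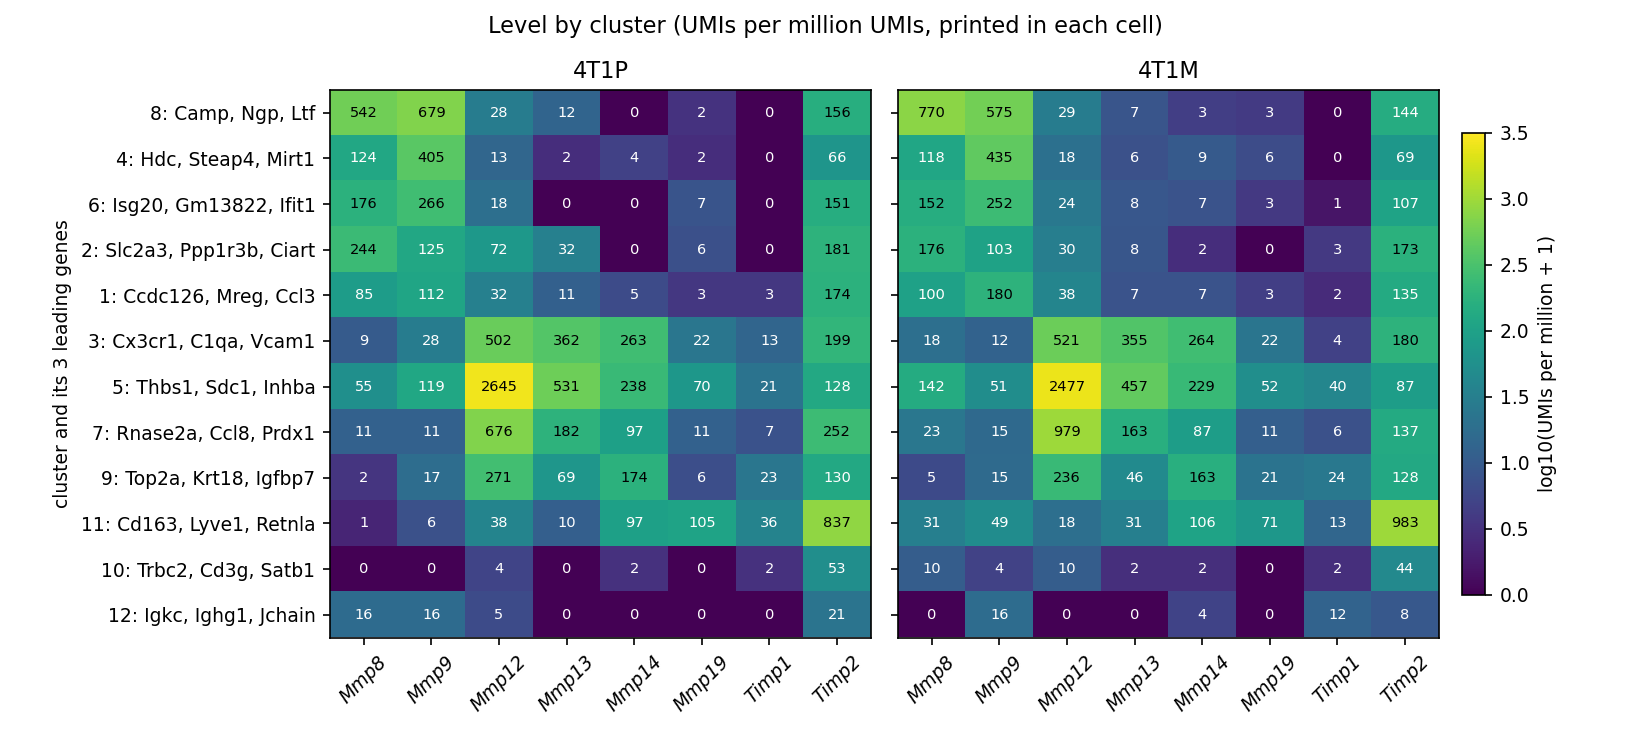
Level of each gene (CPM, printed and colored by log10 of the level plus 1) in the 12 clusters with at least 30 cells in 4T1P (left) and 4T1M (right), labeled by their leading genes. Mmp8 and Mmp9 peak in cluster 8, Mmp12 and Mmp13 in cluster 5, Mmp14 in cluster 3 and Timp2 in cluster 11.

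The clusters differed in size between the libraries, and the ratios over all macrophages were set beside those inside and outside a cluster. Cluster 11 made up 10.2% of macrophages in 4T1P (81 cells) and 3.18% in 4T1M (31 cells). Outside it, an alternative chosen after the data were seen, the log2 ratio of Timp2 was -0.20 (-0.31 to -0.10), and within it 0.18 (-0.05 to 0.41), against -0.44 over all macrophages. Among the genes of resident macrophages 7 of 8 were past 1.5-fold lower in 4T1M macrophages, down to -3.46 for Lyve1, and 1, Timd4, was higher at 0.78. Cluster 5 made up 21.8% and 24.3% of macrophages, and there Mmp8 stood at 32.8 CPM in 4T1P (87 UMIs) and 121.7 CPM in 4T1M (320 UMIs), a log2 ratio of 1.89 (1.54 to 2.25). Outside cluster 5 Mmp8 stood at 6.21 and 7.74 CPM, a ratio of 0.32 (-0.31 to 0.96) that was no longer past 1.5-fold. Mmp9 was lower in 4T1M on both sides, at -1.56 (-1.87 to -1.26) inside cluster 5 and -1.95 (-2.52 to -1.41) outside it. Timp1 stood at 0.01 (-0.66 to 0.68) inside cluster 5 and at -1.55 (-2.14 to -0.996) outside it.

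Within macrophages Timp2 showed the same order along the list of resident genes, while Mmp12 did not. Cells were grouped by none, 1 and more than 1 UMI of 8 resident macrophage genes. Timp2 stood at 144, 194 and 417 CPM in 4T1P and at 135, 211 and 322 CPM in 4T1M. Mmp12 stood at 1227, 1067 and 1126 CPM in 4T1P and at 1333, 700 and 1200 CPM in 4T1M, lowest in the middle group. However, 10 cells of the high group held 58.7% of its Mmp12 UMIs in 4T1P and 87.5% in 4T1M, so this order rests on few cells. By the share of cells with a UMI before thinning, Mmp12 was lowest in the high group, at 33.9% and 36.4%. Along 6 monocyte genes (Ly6c2, Ccr2, Plac8, Hp and Vcan among them) Timp2 stood at 285, 179 and 124 CPM in 4T1P and at 222, 132 and 93.3 CPM in 4T1M. In both libraries Timp2 was thus highest in cells with more than 1 UMI of the resident list. It was lowest in cells with more than 1 UMI of the monocyte list, a grouping that does not settle the type of these cells. Mmp12 also stood lower along the monocyte list, from 1510 to 621 and 506 CPM in 4T1P and from 1571 to 811 and 527 CPM in 4T1M, and so did Mmp13, from 421 to 223 CPM and from 467 to 163 CPM between the none and the high group. In cells with more than 5 UMIs of a list around arginase (Arg1, Thbs1, Sdc1, Spp1, Hmox1, Vegfa, Ero1l and Slc2a1) Mmp12 stood at 1515 and 1971 CPM, the highest of the 3 groups in both libraries.

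The lists themselves differed between the libraries in macrophages. Of the interferon genes 10 of 12 were past 1.5-fold higher in 4T1M, up to 1.77 for Usp18, with Cxcl10 lowest at -0.05. Of the 6 monocyte genes Ly6c2 was highest at 2.90 on 33 and 262 UMIs and Vcan lowest at -1.83. Of 5 MHC class II genes none was past the size, from Cd74 at 0.42 to H2-Eb1 at 0.58, and of the 8 genes of the Arg1 list 1 was lower, Thbs1 at -0.93, with Sdc1 highest at 0.39. The part of these differences in the ratios of the members was not tested. Macrophages were grouped by none, 1 to 15 and more than 15 UMIs of 5 MHC class II genes. Mmp9 stood in these groups at 96.5, 78.2 and 7.02 CPM in 4T1P and at 82.5, 22.4 and 4.25 CPM in 4T1M. Mmp9 was thus lowest in the cells with most of these antigen presentation transcripts. However, 10 cells of a group held 80.5% or more of its UMIs. Mmp8 stood at 18.8, 17.7 and 7.34 CPM in 4T1P and at 310, 33.2 and 7.54 CPM in 4T1M. In the none group of 4T1M 45.2% of 73 cells held a UMI of Mmp8 before thinning, with 218 UMIs. In that of 4T1P 7.26% of 124 cells did, with 28 UMIs. In the 4T1M group 10 cells held 67.9% of these UMIs.

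**Figure D5:**
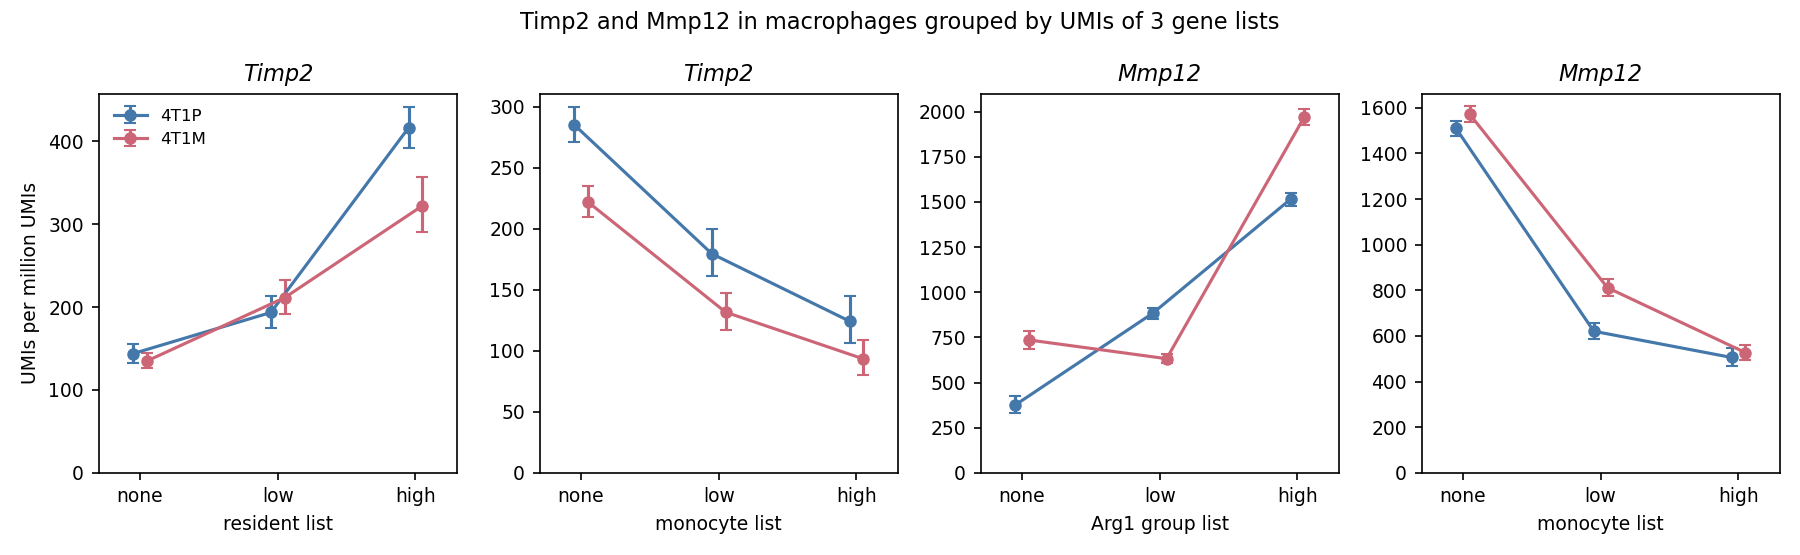
Levels (CPM, vertical axes from 0) of Timp2 in macrophages of 4T1P (blue) and 4T1M (red) grouped by UMIs of the resident and monocyte lists and of Mmp12 grouped by the Arg1 and monocyte lists, with exact Poisson 95% intervals. Timp2 climbs along the resident list and descends along the monocyte list, and Mmp12 stands highest in the high Arg1 group and in cells without monocyte transcripts.

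Likeness was taken as Pearson's r of log2(CPM + 10) over the 24 points of 12 clusters in 2 libraries, among 5112 genes of at least 20 CPM on average. The points share libraries and depth, so these are descriptions. Mmp19 and Timp1 themselves lay under that level, at 17.7 and 8.79 CPM on average over the points, so their likeness rests on low values. Of all these genes the one most like Mmp12 was Mmp13 (r = 0.96), followed by Cxcl14 (0.93) and Spp1 (0.92), and Mmp12 was in turn most like Mmp13. Mmp8 was most like Mcemp1 (0.93), Wfdc21 (0.92) and Glrx (0.92), and Mmp9 like Trem3 (0.96), Hp (0.95) and Trem1 (0.94). The 2 granule proteases had r = 0.91 with each other, and Mmp8 had r = -0.10 with Mmp12, which lies on the same stretch of chromosome 9. Mmp14 was most like Itgb5 (0.97), Sh3pxd2b (0.97), which encodes a scaffold protein of podosomes, and Myof (0.97). Among the genes most like Mmp19 were Pmp22 (0.93) and Fam129b (0.92). Timp1 was most like Tspan3 (0.88), P2ry10b (0.88) and Mt2 (0.87), and Timp2 most like Ctsd (0.87), Rab1a (0.87) and Sec14l1 (0.86).

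The other 18 listed genes of the family held few UMIs. Mmp25, a membrane-anchored metalloproteinase of neutrophils, was the only one with 50 or more, at 42.7 and 55.9 CPM in neutrophils (107 and 368 UMIs) and 5.36 and 9.10 CPM in macrophages. Its ratio of 4T1M over 4T1P was 0.39 (0.07 to 0.71) in neutrophils and 0.76 (0.23 to 1.31) in macrophages, in the direction of Mmp8. The gelatinase Mmp2 held 22 and 17 UMIs in macrophages and 0 in neutrophils of both libraries, and Timp3 at most 3 in either class, with 34 in the cells outside both classes in 4T1P.

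Among 16 partners of the family (activators, receptors and inhibitors of the plasminogen system, binding proteins and surface carriers) 13 had enough UMIs in neutrophils, with 3 past 1.5-fold higher in 4T1M and 2 lower. Serpinb2, an inhibitor of plasminogen activators, was the lowest at -1.54. In macrophages 0 of 14 were higher and 2 lower, with Lcn2, whose product binds Mmp9, the highest at 0.43 and Thbs1, thrombospondin, the lowest at -0.93. The list as a whole had medians of 0.18 and 0.04. Of 16 other proteases 1 of 11 was higher in 4T1M neutrophils, the cathepsin Ctss at 0.95, and none lower, with Adam9 lowest at -0.55. Ctss is also among the monocyte and macrophage markers used above, and the part of macrophage RNA in its ratio was not tested. In macrophages 1 of 12 was higher and 1 lower, Ctsk, a cathepsin that degrades collagen, at 2.20 (28 and 137 UMIs) and Prtn3 at -0.94.

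Of 12 matrix substrates 4 had enough UMIs in macrophages, with 1 higher and 2 lower in 4T1M. Col4a1 was the highest at 0.59 on 23 and 37 UMIs, with an interval of -0.20 to 1.41, and Vcan, the proteoglycan versican, the lowest at -1.83. In neutrophils Fn1 alone had enough, at 0.26. A list of 12 genes of AP-1, NF-kB and the ETS factor Ets2 held factors known to drive several members. All 12 had enough UMIs in both classes and 0 were past 1.5-fold in either. Their ratios reached from -0.20 (Fosl1) to 0.54 (Relb) in neutrophils and from -0.35 (Fos) to 0.31 (Nfkb1) in macrophages.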

How the data were processed

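Per the labels, GR1+ cells of 4T1P and 4T1M tumors were run on the 10x Genomics system. The values deposited by the authors are unnormalized counts of UMIs for each gene in each barcode, made with Cell Ranger 4.0.0 per the submitters' processing notes (a later version in the study's methods) on mm10, that is GRCm38. The members and lists used here were chosen with earlier results of these data known.

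UMIs were summed by class and library in Python 3.11.15 (scipy 1.17.1) and divided by the total of the class. CPM carry exact Poisson, shares exact binomial (Clopper-Pearson) and ratios exact conditional binomial 95% intervals. They cover counting error only. Genes named are the 8 members, the 3 genes most like each, and of each list the genes with the highest and lowest ratio; others were named after their values were seen. Cells were clustered with scanpy 1.11.5 (leidenalg 0.10.2, resolution 0.75). Scaling alternatives used edgeR 4.0.16 and DESeq2 1.42.0 for factors only. Doublets were not removed in the main setting, since Scrublet's automatic threshold called 1 and 0 barcodes. The ratio script was checked on simulated counts. Some genes that this rule names are not reported here.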

Additional observations from a re-analysis of the deposited data

Results flagged for a closer look

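The 4T1M over 4T1P log2 ratio of Mmp13 was above 0 in neutrophils (0.37) and below 0 in macrophages (-0.05), which is why it is given here, but both intervals included 0 (-0.12 to 0.88 and -0.12 to 0.02). The difference, macrophages minus neutrophils, was -0.42 with a counting interval of -0.94 to 0.07. With 1 library per tumor line it was not tested. Without the barcodes of the highest doublet scores the values were 1.004 and -0.0093, and without the 10 richest cells of each library 1.29 and 0.03. The ratios had the same sign in both classes with at most 5% mitochondrial UMIs (0.08 and 0.08), with no upper limit on genes (0.79 and 0.13), under stricter class cuts (0.29 and 0.09) and by the mean over cells (-0.04 and -0.07).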

How the results depend on the processing

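No paired analysis was possible because each tumor line gave 1 library. None of 273 values of the members' ratios under 11 alternatives turned a ratio past the fold to the other direction, 165 stayed within the counting interval of the main value and 108 left it. Of these values 2 lost the size used. They were Mmp8 in macrophages outside cluster 5 (0.32) and Mmp9 between the classes in 4T1P with at most 5% mitochondrial UMIs (-1.99). Another 7 values gained it, from the ratios of Mmp12 and Mmp13 in neutrophils and of Mmp19 and Timp2 in macrophages. Mmp19 did so with at most 5% mitochondrial UMIs (-0.66) and Timp2 by the mean over cells (-0.65). Each took the members past 1.5-fold in macrophages from 3 to 4. Ratios not past the fold did change sign: in neutrophils Mmp12 (-0.03 with at most 5% mitochondrial UMIs, -0.09 under stricter class cuts), Mmp13 (-0.04 by the mean over cells) and Mmp8 (-0.06 under stricter class cuts), and in macrophages Mmp12 and Mmp13. Members past 1.5-fold in neutrophils numbered 1, but 2 with no upper limit on genes, 3 without the highest doublet scores and 2 without the 10 richest cells, the added genes being Mmp13, then Mmp12 and Mmp13, and in the last these alone, since Mmp14 had no value there. Members past 4-fold between the classes in 4T1P numbered 7, and 4 without the 10 richest cells, where 3 had no UMI left in neutrophils. Timp2, never past the fold between the classes, changed sign with the TMM and DESeq2 factors, to -0.13 in 4T1P and -0.34 in 4T1M at the lowest.

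The genes past 1.5-fold in neutrophils, 634 higher and 202 lower, numbered 337 higher under stricter class cuts, 317 lower by the mean over cells, 1701 and 951 with at least 10 UMIs, and 228 and 34 with at least 200. In macrophages, 398 and 403, they numbered 855 lower with no upper limit on genes, 701 and 764 by the mean over cells, 945 and 1002 with at least 10 UMIs, and 195 and 148 with at least 200. Between the classes in 4T1P, 2890 and 361, they numbered 1852 and 682 with TMM, 1687 and 770 with DESeq2 factors, 606 lower with at least 10 UMIs, and 1559 and 200 with at least 200. In 4T1M, 2742 and 436, they numbered 1531 and 818, 1392 and 897, 713 lower, and 1489 and 278. The minimum of UMIs changes which genes are counted; for the others the cause was not tested. Other thinning depths left 6 members with the higher share in macrophages, and other cluster resolutions left 8 and 6 members with the same highest cluster in both libraries.

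With mice pooled into 1 library per line, the tumor line and the library cannot be told apart, and no spread between animals can be given. At these depths, ratios of Mmp19 and Timp1 in neutrophils were not detectable.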
